A study of Danio rerio with 12 samples.

Results

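The genes described here make, break down, specify or receive dopamine: th, comtb, nr4a2a, nr4a2b, otpb, drd1a, drd1b, drd2b, drd2l and drd3. They were chosen by gene symbol, from probe sets that carry 1 symbol in the platform annotation, and th, which had more than 1 such probe set, was taken from the brighter one. All 10 genes were found and passed the filter on low values, out of 18963 genes with a symbol of their own, of which 18385 passed. RNA came from whole zebrafish larvae of the wild-type AB line, and 12 Affymetrix arrays were hybridised, each with RNA from a pool of 30 to 40 larvae, per the labels. All embryos had their chorions removed with Proteinase K and were injected, the treated ones at the zygote stage. The 3 injections were 5-HT (serotonin), reserpine, which blocks the vesicular monoamine transporter, and a control solution, and all 3 contained KCl and TRITC-dextran as a tracer. Reserpine was brought into solution through ethanol and DMSO, and the controls received those solvents as well. Each injection was sampled at 2 and at 4 days post fertilisation (dpf), which gave 6 groups of 2 arrays that the labels call biological replicates. No source used here gives the dose.

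Dopamine is made from tyrosine by tyrosine hydroxylase and aromatic amino acid decarboxylase, is packed into vesicles by a monoamine transporter, and is inactivated by monoamine oxidase and catechol-O-methyltransferase. In zebrafish the dopamine neurons lie mainly in the forebrain, the olfactory bulb included, with others in the retina. Some of the diencephalic groups depend on the Otp homeodomain factors. Dopamine receptors form a class that stimulates adenylyl cyclase, to which drd1a and drd1b belong, and a class that inhibits it, to which drd2b, drd2l and drd3 belong. Serotonin and dopamine share the decarboxylase, the vesicular transporter and monoamine oxidase.

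The values were read as log2 expression, so a difference of 1 is a doubling, and values of different probe sets were not compared with each other. Array medians lay between 6.44 and 6.56. Correlations across features were 0.975 to 0.988 between arrays of a group, 0.959 to 0.99 between groups of an age and 0.934 to 0.966 between ages. One array went against a label: the second 4 dpf reserpine array was described in 1 label field as coming from 2-day larvae, while its title, source and age fields said 4 days. The mean over 13 exocrine pancreas genes was 12.38 to 12.78 on all 6 arrays of 4 dpf and 6.58 to 8.24 on the arrays of 2 dpf, and the array was kept at 4 dpf. At 2 dpf that mean was 7.81 to 8.24 on the second replicates of the 3 groups and 6.58 to 7.04 on the first. The first 2 dpf control array was the lowest, and its mean over 11 liver genes was 8.55, against 9.72 to 10.02 on the other 2 dpf arrays. That array also had the highest otpb, nr4a2a and nr4a2b values and the lowest drd1a value of all arrays. The part of these array differences in other genes was not tested. The list means of 27 pan-neuronal genes spanned 9.65 to 9.98 on the 2 dpf arrays and 9.67 to 9.86 on the 4 dpf arrays. Because whole larvae were used, fewer cells of a type and less RNA per cell cannot be told apart.

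Differences were tested with limma across all 58127 features that passed the filter, with Benjamini-Hochberg adjustment, and calls were made at an adjusted p under 0.05. Standard errors and 95% intervals are from the same fit, each group has n = 2 arrays, and the intervals are not adjusted for the number of genes. Each age comparison was made within an injection. Their mean, 3 groups of 4 dpf against 3 of 2 dpf, was added after seeing the data.

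Members of this group of genes passed the test between ages, and none passed between injections. In the mean over the 3 injections, 4 of the 10 genes fell from 2 to 4 dpf (otpb, nr4a2a, comtb and nr4a2b) and 2 rose (drd1b and drd1a), while th, drd2b, drd2l and drd3 did not pass the test. Over all features 24.8% were called in this comparison, 11.3% higher and 13.5% lower at 4 dpf, and of the 18385 genes 37.4% were called. The median change was -0.10 over the 10 genes and -0.05 over all genes. For 5 of the 10 genes all 6 arrays of 4 dpf lay on one side of all 6 of 2 dpf, against 14.5% of features (7.43% higher and 7.06% lower at 4 dpf) and 25.7% of genes.

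**Figure D1:**
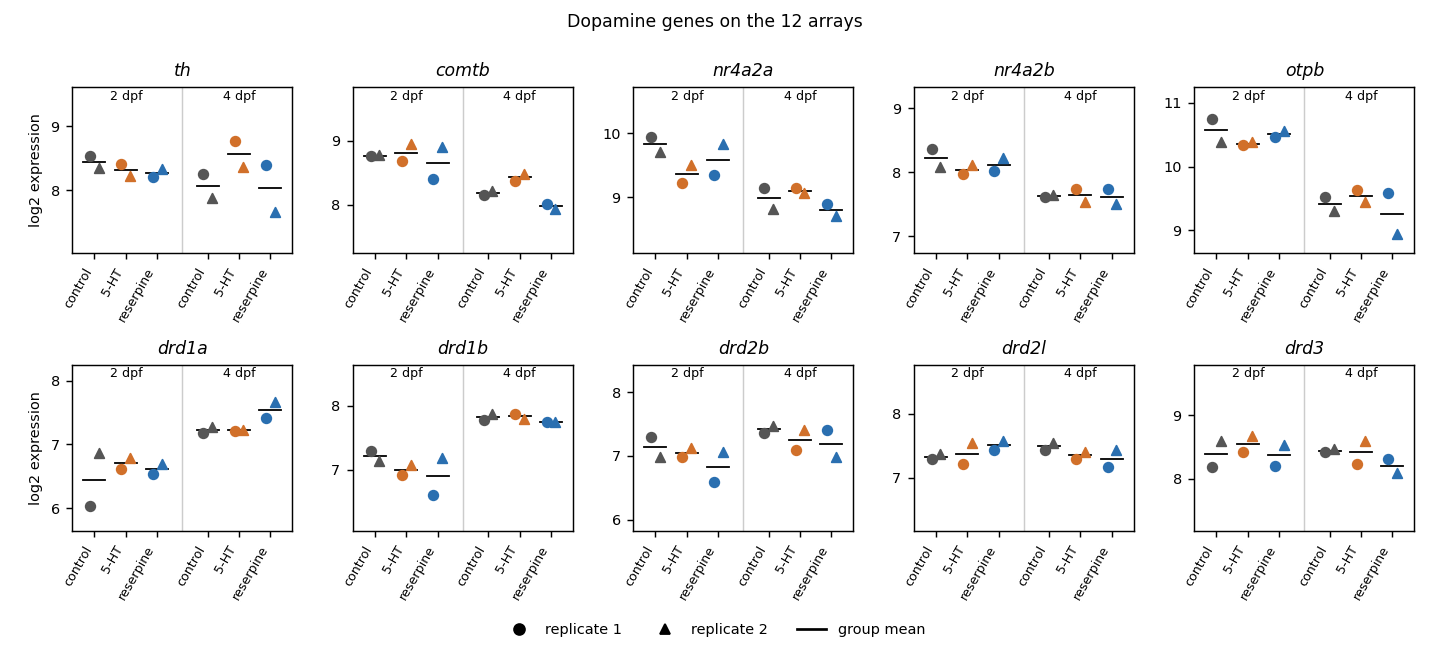
Log2 expression of the 10 genes on the 12 arrays (y axis), by age and injection (x axis). Each point is 1 array, with replicate 1 as a circle and replicate 2 as a triangle, and bars mark group means. The arrays of 2 and 4 dpf do not overlap for nr4a2a, nr4a2b, otpb, drd1a and drd1b.

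The gene for tyrosine hydroxylase, th, the rate-limiting enzyme of dopamine synthesis, which noradrenergic neurons also use, was measured by probe set 13161990. At 2 dpf its levels were 8.53 and 8.35 in controls, 8.41 and 8.22 after 5-HT and 8.21 and 8.33 after reserpine. At 4 dpf they were 8.25 and 7.88 in controls, 8.77 and 8.37 after 5-HT and 8.40 and 7.66 after reserpine. The 4 dpf arrays spread from 7.66 to 8.77, on both sides of the 2 dpf arrays, which spanned 8.21 to 8.53. The mean age difference was -0.12 (SE 0.14, interval -0.44 to 0.20, adjusted p = 0.589), so a change of a size within that interval is not excluded. At 4 dpf replicate 2 lay below replicate 1 in all 3 groups, with the widest gap after reserpine. A second, dim probe set of th ranged from 3.74 to 4.45, did not pass the filter, and also read lower in replicate 2 of every group.

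The gene for catechol-O-methyltransferase, comtb (probe set 12974843), whose product inactivates dopamine and other catechols, fell with age. Its 2 dpf levels were 8.76 and 8.78 in controls, 8.68 and 8.95 after 5-HT and 8.40 and 8.91 after reserpine. Its 4 dpf levels were 8.16 and 8.22 in controls, 8.37 and 8.49 after 5-HT and 8.01 and 7.94 after reserpine. Within each injection both 4 dpf arrays lay below both 2 dpf arrays, and over all arrays the ages overlapped only through the first 2 dpf reserpine array at 8.40 and the second 4 dpf 5-HT array at 8.49. The mean change was -0.55 (SE 0.10, interval -0.78 to -0.32, adjusted p = 0.0047), a 1.46-fold fall. The single injections gave -0.58 in controls, -0.38 after 5-HT and -0.68 after reserpine, none of which passed (adjusted p = 0.0681, 0.214 and 0.0534).

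The gene otpb (probe set 13207915) encodes an Orthopedia homeodomain protein, needed in zebrafish for some diencephalic dopamine neurons and for hypothalamic neuroendocrine cells. A further probe set, which carries otpb among several symbols, was not used. Of the 10 genes, the transcription factor gene otpb changed most. Its levels at 2 dpf were 10.75 and 10.39 in controls, 10.34 and 10.38 after 5-HT and 10.47 and 10.55 after reserpine. At 4 dpf they were 9.53 and 9.31 in controls, 9.64 and 9.44 after 5-HT and 9.58 and 8.94 after reserpine. The 2 ages were separated by a gap of 0.70, with the second 4 dpf reserpine array the lowest of all 12. The mean change was -1.07 (SE 0.12, interval -1.35 to -0.79, adjusted p = 0.000317), a 2.1-fold fall, and 4.86% of genes had a larger change in size. otpb also passed within each injection, with -1.15 in controls (adjusted p = 0.0115), -0.82 after 5-HT (adjusted p = 0.0457) and -1.25 after reserpine (adjusted p = 0.00967).

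The genes nr4a2a (probe set 13264304) and nr4a2b (probe set 13212343) encode the zebrafish counterparts of Nurr1, an orphan nuclear receptor that mouse midbrain dopamine neurons require. For nr4a2a the 2 dpf levels were 9.95 and 9.70 in controls, 9.22 and 9.50 after 5-HT and 9.35 and 9.83 after reserpine. Its 4 dpf levels were 9.15 and 8.81 in controls, 9.14 and 9.06 after 5-HT and 8.89 and 8.70 after reserpine. The lowest 2 dpf array and the highest 4 dpf array were 0.07 apart, and the first 5-HT array of 2 dpf, at 9.22, was the lowest of its age. The mean change was -0.63 (SE 0.12, interval -0.90 to -0.37, adjusted p = 0.00427). Within injections nr4a2a fell by 0.85 in controls (adjusted p = 0.0297) and by 0.79 after reserpine (adjusted p = 0.0475), and its value after 5-HT was -0.26 (adjusted p = 0.472). Whether these age changes differed between injections is the interaction given further on, which did not pass.

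For nr4a2b the 2 dpf levels were 8.37 and 8.09 in controls, 7.97 and 8.11 after 5-HT and 8.02 and 8.22 after reserpine. Its 4 dpf levels were 7.61 and 7.65 in controls, 7.74 and 7.54 after 5-HT and 7.74 and 7.50 after reserpine. The 2 ages were 0.23 apart, and the 3 injections of an age overlapped at both ages. The mean change was -0.50 (SE 0.09, interval -0.71 to -0.29, adjusted p = 0.00435), a 1.41-fold fall. The change in controls passed, at -0.60 (adjusted p = 0.0428), while -0.40 after 5-HT and -0.50 after reserpine did not (adjusted p = 0.154 and 0.0989).

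Both genes of the stimulatory receptor class rose. For drd1b (probe set 13263398) the 2 dpf levels were 7.29 and 7.14 in controls, 6.91 and 7.08 after 5-HT and 6.61 and 7.19 after reserpine. Its 4 dpf levels were 7.78 and 7.87 in controls, 7.88 and 7.80 after 5-HT and 7.75 on both reserpine arrays. All 4 dpf arrays lay within 7.75 to 7.88, 0.46 above the highest 2 dpf array. The mean change was 0.77 (SE 0.11, interval 0.53 to 1.01, adjusted p = 0.000934), a 1.7-fold rise. Within injections the changes after 5-HT (0.84, adjusted p = 0.0243) and after reserpine (0.85, adjusted p = 0.0265) passed, and that in controls (0.61, adjusted p = 0.0651) did not.

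For drd1a (probe set 13009784) the 2 dpf levels were 6.03 and 6.86 in controls, 6.62 and 6.79 after 5-HT and 6.54 and 6.69 after reserpine. Its 4 dpf levels were 7.18 and 7.27 in controls, 7.21 and 7.23 after 5-HT and 7.42 and 7.67 after reserpine. The ages were 0.32 apart, the first 2 dpf control array was the lowest of the 12 and the 2 reserpine arrays of 4 dpf were the highest. The mean change was 0.74 (SE 0.14, interval 0.43 to 1.05, adjusted p = 0.00417), a 1.67-fold rise. The change after reserpine passed (0.93, adjusted p = 0.047), while 0.78 in controls and 0.52 after 5-HT did not (adjusted p = 0.064 and 0.209).

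None of the 3 genes of the inhibitory receptor class passed in any age comparison. For drd2b (probe set 13208666) the 2 dpf arrays ranged from 6.59 to 7.29 with a median of 7.03, and the 4 dpf arrays from 6.98 to 7.47 with a median of 7.38. Its mean difference was 0.28 (SE 0.12, interval 0.00 to 0.56, adjusted p = 0.137). For drd2l (probe set 13035385), whose 6 group means spanned only 0.21, the 2 dpf arrays ranged from 7.21 to 7.58 and the 4 dpf arrays from 7.16 to 7.55. Its mean difference was -0.03 (SE 0.09, interval -0.23 to 0.18, adjusted p = 0.874). The RefSeq gene table lists drd2b as a synonym of drd2l and drd2c as a synonym of drd2b, so the symbol drd2b may stand for either gene in other annotations. For drd3 (probe set 13145389) the 2 dpf arrays ranged from 8.18 to 8.68 and the 4 dpf arrays from 8.10 to 8.59, with a mean difference of -0.08 (SE 0.12, interval -0.34 to 0.18, adjusted p = 0.659). The arrays of the 2 ages overlapped for all 3 genes, and the age change of the stimulatory class was not tested against that of the inhibitory class.

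**Figure D2:**
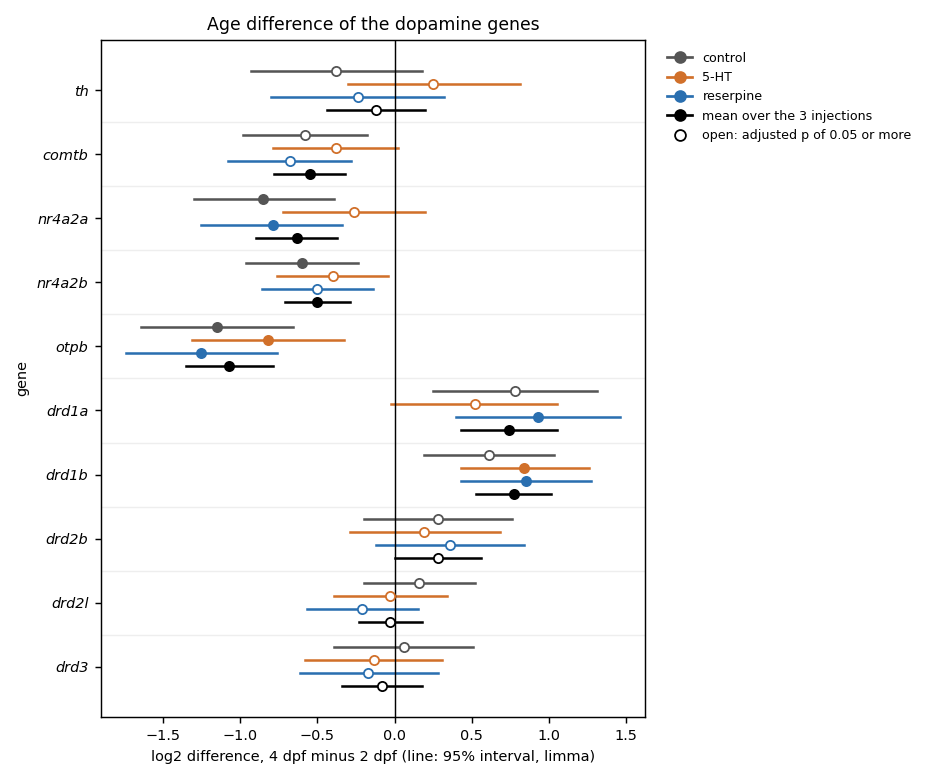
Log2 difference of 4 dpf minus 2 dpf (x axis) for the 10 genes (y axis) in each injection and as the mean over the 3 injections, with 95% intervals from limma. Filled points passed at an adjusted p under 0.05. The means of comtb, nr4a2a, nr4a2b and otpb lie below 0 and those of drd1a and drd1b above it.

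Within single injections 3 of the 10 genes were called in controls, all lower, against 11.3% of features (5.5% higher, 5.82% lower) and 15.5% of genes. After 5-HT 1 rose and 1 fell, against 9.22% of features (5.06% higher, 4.15% lower) and 12% of genes. After reserpine 2 rose and 2 fell, against 6.95% of features (4.45% higher, 2.5% lower) and 11.1% of genes. With 2 arrays a group, each of these calls was lost in at least 1 fit without a single array. Some losses came with the value unchanged, when the array left out belonged to neither group compared, as for nr4a2a after reserpine at -0.79. The calls of the mean over injections were kept without any 1 of the 12 arrays, the array with the conflicting label included.

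In controls the otpb call was lost without control replicate 1 of 2 dpf (adjusted p = 0.0917) or without replicate 1 or 2 of 4 dpf (0.0512 and 0.0973). That of nr4a2a was lost without the same 3 arrays (adjusted p = 0.173, 0.069 and 0.202). That of nr4a2b was lost without them (adjusted p = 0.231, 0.178 and 0.179), without either 2 dpf 5-HT array (0.0579) and without either 4 dpf 5-HT array (0.0604). Other genes gained a call in controls: drd1a without control replicate 2 of 2 dpf (1.19, adjusted p = 0.00778; it was 0.36 without replicate 1), and comtb and drd1b without either 2 dpf reserpine array (adjusted p = 0.0313 and 0.0221).

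After 5-HT the drd1b call was lost without replicate 1 or 2 of 2 dpf (adjusted p = 0.126 and 0.078) or of 4 dpf (0.139 and 0.0883). The otpb call was lost without those 4 arrays (adjusted p = 0.148, 0.165, 0.137 and 0.196), without either 2 dpf reserpine array (0.052) and without either 4 dpf control array (0.0683).

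After reserpine the otpb call was lost without replicate 2 of 2 dpf (adjusted p = 0.0512). The drd1b call was lost without reserpine replicate 1 of 2 dpf, where its value was 0.56 (adjusted p = 0.0894), and without replicate 1 or 2 of 4 dpf (0.12 and 0.0802). The drd1a call was lost without replicate 1 or 2 of the 2 dpf reserpine arrays (adjusted p = 0.145 and 0.119) or of the 4 dpf ones (0.119 and 0.159). It was also lost without either 2 dpf 5-HT array (adjusted p = 0.0652), either 4 dpf control array (0.0759) or either 4 dpf 5-HT array (0.072). The nr4a2a call was lost without reserpine replicate 2 of 2 dpf, where its value was -0.55 (adjusted p = 0.218), and without replicate 1 or 2 of 4 dpf (0.125 and 0.155). It was also lost without either array of the 2 dpf controls (adjusted p = 0.056), the 2 dpf 5-HT group (0.0586), the 4 dpf controls (0.0629) or the 4 dpf 5-HT group (0.0731). Without reserpine replicate 1 of 2 dpf comtb passed, at -0.94 (adjusted p = 0.0215), and without replicate 2 it was -0.43.

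The other genes of dopamine synthesis, packaging, reuptake and breakdown moved in both directions. Of 17 listed genes 13 were measured, 4 rose and 3 fell in the mean over injections, where 37.4% of all genes were called. The genes not found included slc6a3, the dopamine transporter, and comta, so dopamine reuptake itself was not read. The list median was -0.01. ddc, the aromatic amino acid decarboxylase shared by dopamine and serotonin synthesis, rose by 2.03 (SE 0.17, adjusted p = 3.56e-05), from 5.25 to 6.34 on the 2 dpf arrays to 7.65 to 8.36 on those of 4 dpf. mao, monoamine oxidase, rose by 0.85 (SE 0.09, adjusted p = 0.00018). The genes for pts and sprb, enzymes that make the tetrahydrobiopterin cofactor used by tyrosine hydroxylase, fell by 1.30 (SE 0.11, adjusted p = 5.26e-05) and by 0.82 (SE 0.13, adjusted p = 0.00186). Chosen after their values were seen, slc6a2, the noradrenaline transporter, rose by 0.72 (adjusted p = 0.00182), th2, a paralogue of th, rose by 0.41 (adjusted p = 0.0138), and slc18a2, the vesicular transporter that reserpine blocks, was at -0.01 (SE 0.11, adjusted p = 0.951). The arrays of the 2 ages did not overlap for ddc, and th itself did not pass. All of these genes were read in whole larvae, so their changes cannot be assigned to dopamine neurons. The lists were chosen with earlier results of these data known.

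Of 28 other genes of dopamine neuron specification and maintenance 26 were measured. In the mean over injections 13 fell and 2 rose, where 37.4% of all genes were called. The list median was -0.30, against -0.05 over all genes. Within injections the limma fit called 7 lower in controls, 1 after reserpine and 0 after 5-HT, against 5.82%, 2.5% and 4.15% of features. At an unadjusted p under 0.05 the counts of lower genes were 11, 11 and 3 in the same order, and those of higher genes 2, 2 and 1. Over all genes 35.3%, 32.1% and 31.1% had such a p, higher and lower together, and over all features 27.1%, 22.9% and 25.7%. List medians were -0.39, -0.39 and -0.10. The interaction of 5-HT with age called 0 of the 26 genes, against 2.16% of features. Its values were above 0 for 19 genes and below 0 for 7, with a median of 0.25. Medians of the same interaction were 0.44 for skeletal muscle, 0.42 for inner retina, 0.16 for pan-neuronal and -0.69 for liver genes. The reserpine interaction also called 0 of the 26, with a median of 0.08. The list as a whole was not tested between injections. In the mean over injections the proneural gene neurog1 fell by 1.05 (SE 0.12, adjusted p = 0.000343). The LIM homeodomain gene lmx1bb fell by 0.60 (SE 0.11, adjusted p = 0.00316) and the forkhead gene foxa2 by 0.41 (SE 0.09, adjusted p = 0.0102). sncgb, a synuclein gene, rose by 0.52 (SE 0.07, adjusted p = 0.00108). otpa, the paralogue of otpb and chosen after its value was seen, fell by 0.74 (SE 0.13, adjusted p = 0.0038). Of the related nuclear receptor genes, nr4a1 was at -0.34 and nr4a3 at -0.19, and neither passed (adjusted p = 0.31 and 0.436). The count of 13 lower genes became 7 without replicate 2 of the 2 dpf 5-HT, 2 dpf reserpine or 4 dpf control group, and 8 without replicate 1 of the 2 dpf or 4 dpf controls or either 4 dpf 5-HT array. Many of these factors also act in neurons other than dopamine neurons.

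Of 20 listed other receptors and signalling genes 18 were measured, 3 rose and 2 fell, against 37.4% of all genes called. The median was 0.11. drd5a, a further receptor of the stimulatory class, fell by 0.50 (SE 0.11, adjusted p = 0.0105), opposite in direction to drd1a and drd1b. drd4a, of the inhibitory class and chosen after its value was seen, rose by 0.45 (SE 0.11, adjusted p = 0.019). rgs9a, a regulator of G protein signalling that photoreceptors also use, rose by 2.35 (SE 0.35, adjusted p = 0.0013). ppp1r1b, the counterpart of a mammalian phosphatase inhibitor that dopamine regulates, fell by 0.37 (SE 0.07, adjusted p = 0.00651), and gnal2, a G protein alpha subunit gene, was at 0.19 and did not pass (adjusted p = 0.208). Receptor genes of both classes were thus among those that rose.

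**Figure D3:**
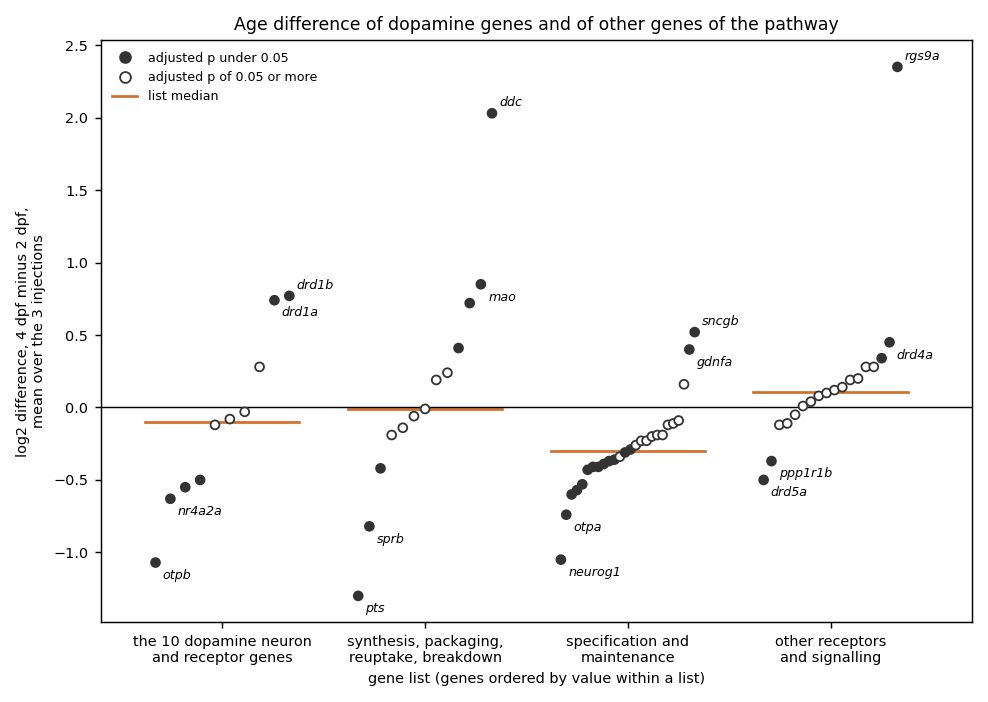
Log2 difference of 4 dpf minus 2 dpf, mean over the 3 injections (y axis), for the 10 genes and 3 lists of related genes (x axis, genes ordered by value within a list). Each point is 1 gene, filled points passed at an adjusted p under 0.05, and bars mark list medians of -0.10, -0.01, -0.30 and 0.11.

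Markers of the cells that could share these transcripts were read beside them in the mean age comparison. The counts of each list stand against 37.4% of all genes called there, higher and lower together. Of 7 genes of neuroendocrine neurons that express otp 1 rose, sst1.1 (0.87, SE 0.13, adjusted p = 0.00125), and none fell, with a median of 0.18. In that list oxt was at 0.18, crhb at 0.27 and sst1.2 at 0.16, and none of the 3 passed (adjusted p = 0.19, 0.0632 and 0.374), while otpb and otpa fell. Of 6 genes of noradrenergic neurons, which also express th, 1 rose and 3 fell, with a median of -0.25 and list means that spanned 8.14 to 8.34 on the 2 dpf arrays and 7.94 to 8.14 on the 4 dpf arrays. hand2 fell by 0.80 (adjusted p = 0.000203) and insm1a by 0.55 (adjusted p = 0.00557). tfap2a, chosen after its value was seen, also fell (-0.3, adjusted p = 0.028). slc6a2, the noradrenaline transporter gene, was the one that rose, and phox2ba was at -0.10 (adjusted p = 0.393). dbh, chosen after its value was seen, was at -0.19 and did not pass (adjusted p = 0.193). Of 27 pan-neuronal genes 4 rose and 6 fell, with a median of 0.06. Among them the synaptic gene syn2b rose by 0.59 (adjusted p = 0.00508), while tubb5, a neuronal tubulin gene, stmn2b and nefmb fell by 0.81, 0.42 and 0.40 (adjusted p = 0.00026, 0.00712 and 0.0183). Of 12 genes listed for the inner retina, gad1b, gad2 and slc32a1 among the listed ones, 4 rose and 2 fell, with a median of -0.18. The pituitary list held 12 measured genes, of hormones and of prolactin receptors, for a tissue where dopamine restrains prolactin release. Of these 3 rose and none fell, with a median of -0.01. gh1 rose by 1.96 (adjusted p = 9.26e-06), pomca by 0.66 (adjusted p = 0.00283) and the prolactin receptor gene prlra by 0.34 (adjusted p = 0.0209). The second receptor gene, prlrb, was at 0.02 (adjusted p = 0.909). The prolactin gene prl, chosen after its value was seen, was at -0.32 and did not pass (adjusted p = 0.0569). The list genes were not checked for being restricted to these cells, so a list median or mean does not measure how many there were. The part of any of these cell types in the age changes was not tested.

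The injection comparisons ask whether early 5-HT or reserpine altered these genes at 2 or 4 dpf. limma called none of the 10 genes in any of the 6 comparisons within an age. The share of all features called was 0.00688% for 5-HT against control at 2 dpf (4 features) and 0% for the other 5 comparisons, so the background was also near 0. At an unadjusted p under 0.05, 1 of the 10 genes passed for 5-HT against control at 2 dpf (nr4a2a), 1 for 5-HT against reserpine at 4 dpf (comtb) and 0 in the other 4. Over all features 14.9% and 10.8% passed in those 2 comparisons, so 1 of 10 is near the background, and 1.73% to 8.5% in the other 4. The 5-HT and reserpine comparisons of an age share their control arrays.

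The lowest unadjusted p against control was that of nr4a2a at 2 dpf, where both 5-HT arrays, 9.22 and 9.50, lay below both controls, 9.95 and 9.70. The difference was -0.47 (SE 0.20, interval -0.92 to -0.01, adjusted p = 0.327). At 4 dpf the same gene was at 9.14 and 9.06 after 5-HT against 9.15 and 8.81 in controls, groups that overlapped, with a difference of 0.12 (interval -0.34 to 0.58, adjusted p = 0.919). The nr4a2a interaction, the 5-HT difference of 4 dpf minus that of 2 dpf, was 0.59 (SE 0.29, interval -0.06 to 1.23, adjusted p = 0.348).

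At 4 dpf th was 0.50 higher after 5-HT than in controls (SE 0.25, interval -0.05 to 1.06, adjusted p = 0.63), with 8.77 and 8.37 against 8.25 and 7.88. Both 5-HT arrays lay above both controls, and without the first of them the difference was 0.30. Against reserpine the difference was 0.54 (interval -0.02 to 1.1, adjusted p = 0.479), and without reserpine replicate 2 it was 0.17. The dim second probe set of th gave 0.01 against control and -0.11 against reserpine. The th interaction of 5-HT with age was 0.63 (SE 0.35, interval -0.16 to 1.42, adjusted p = 0.414).

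comtb at 4 dpf was 8.37 and 8.49 after 5-HT and 8.01 and 7.94 after reserpine, a difference of 0.45 (SE 0.18, interval 0.05 to 0.86, adjusted p = 0.404) between groups that did not overlap. The controls, at 8.16 and 8.22, lay between them, with differences of 0.24 for 5-HT (adjusted p = 0.771) and -0.21 for reserpine (adjusted p = 1). For drd1a at 4 dpf reserpine was 0.32 above control (interval -0.21 to 0.85, adjusted p = 1), and its arrays, 7.42 and 7.67, lay above both controls. At 2 dpf drd1b and drd2b were each 0.31 lower after reserpine than in controls (intervals -0.73 to 0.10 and -0.79 to 0.18, adjusted p = 0.998 for both), and without the first reserpine array the differences were -0.02 and -0.07.

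Seen across the 10 genes, reserpine at 4 dpf gave values below control in 9 of 10 with a median of -0.17, against 10639 of 18385 genes and a median of -0.02. Without the second 4 dpf reserpine array, the one with the conflicting label, 6 of 10 were below control and the median was -0.04. Without control replicate 1 of 4 dpf it was 8 of 10, with a median of -0.085, and without reserpine replicate 1 of 4 dpf 9 of 10, with a median of -0.265. The 10 genes were read on the same arrays, so their signs are not independent of each other. At 2 dpf reserpine was below control in 8 of 10, against 10045 of 18385 genes, and in 5 of 10 without the first 2 dpf reserpine array. None of these values passed in a single gene, and the widest interval among the 10 genes for reserpine at 4 dpf was that of th, -0.59 to 0.52.

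**Figure D4:**
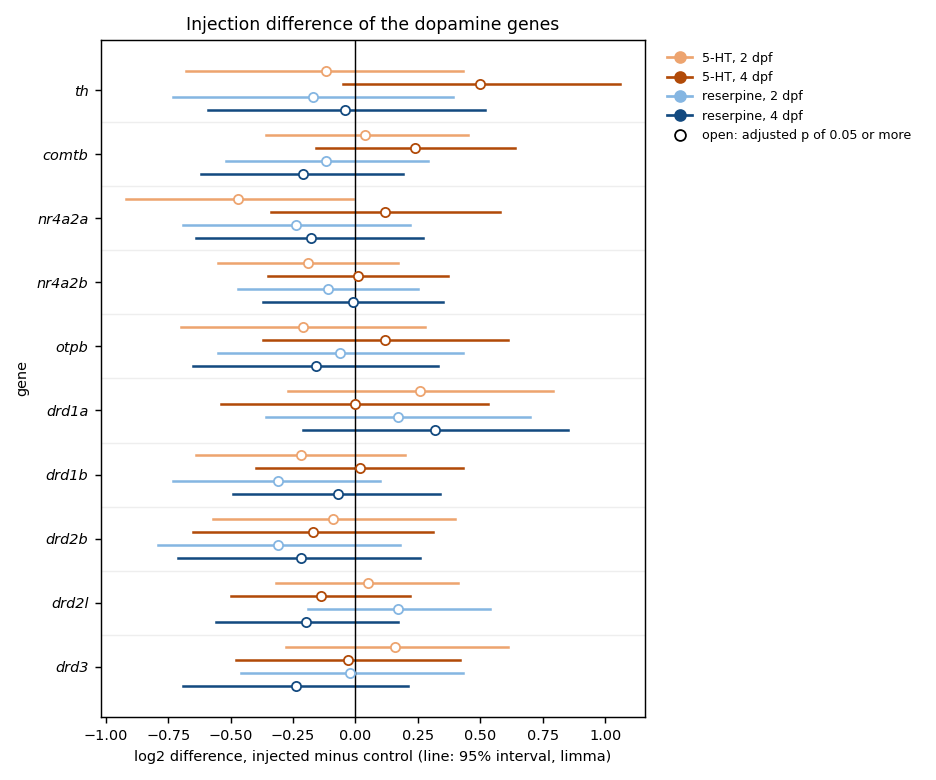
Log2 difference of injected minus control larvae (x axis) for the 10 genes (y axis), for 5-HT and reserpine at 2 and 4 dpf, with 95% intervals from limma. All points are open because no gene passed at an adjusted p under 0.05, and the nr4a2a interval for 5-HT at 2 dpf, -0.92 to -0.01, is the one that excludes 0.

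Whether the injection effects differed between ages was tested as an interaction. limma called 0 of the 10 genes for 5-HT, against 2.16% of features, and 0 for reserpine, against 0%, and 0 of 10 had an unadjusted p under 0.05 in either, against 16.6% of features for 5-HT and 2.46% for reserpine. For reserpine the interaction values ran from -0.37 for drd2l (interval -0.88 to 0.14) to 0.24 for drd1b (interval -0.35 to 0.83). For 5-HT they ran from -0.26 for drd1a (interval -1.02 to 0.49) to 0.63 for th. The th interval reached 1.42, beyond the size of any age change among the 10 genes.

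The genes nearest in pattern were sought for the 3 genes whose 6 group means spanned at least 1: nr4a2a (1.03), otpb (1.31) and drd1a (1.1). Likeness was the root mean square difference between group means after centring each gene, over 6 groups and 16319 genes with established names. Nearest to nr4a2a were mnx1 (0.0266), a motor neuron and pancreas homeobox gene, pfdn2 (0.0336), a prefoldin subunit gene, and dla (0.0349), a Notch ligand gene of the Delta family. Nearest to otpb were plod1a (0.0446), a lysyl hydroxylase gene, myh9a (0.0471), a non-muscle myosin gene, and calub (0.0475), a calumenin gene. Nearest to drd1a were stxbp6l (0.0352), parp12a (0.0455) and rasal3 (0.0511). These are the smallest of many distances over only 6 points, most of whose spread is age, and are a description.

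**Figure D5:**
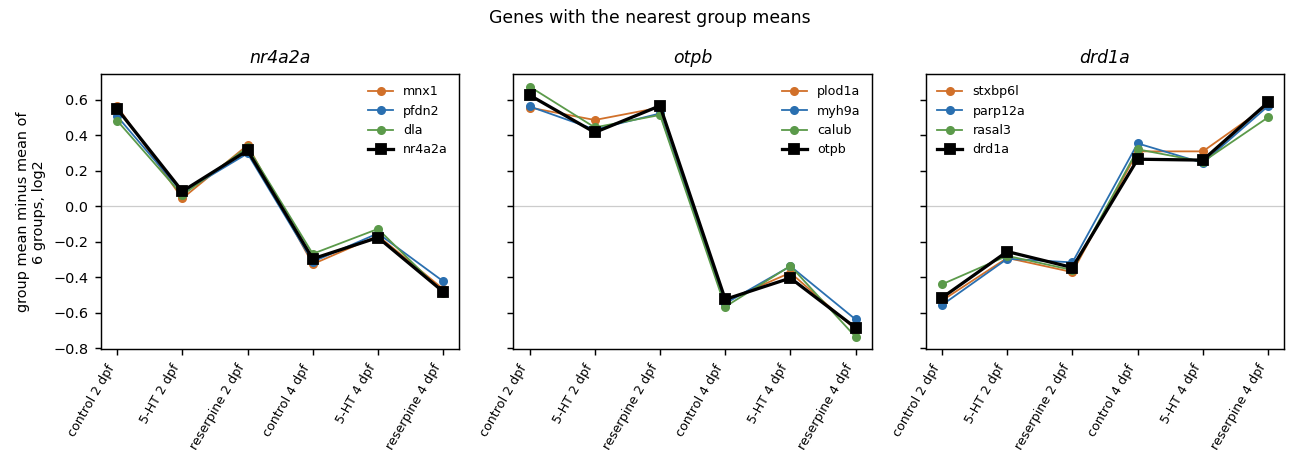
Group mean minus the mean of the 6 groups on the log2 scale (y axis) by group (x axis) for nr4a2a, otpb and drd1a, each with the 3 genes of nearest pattern. In each panel the 4 curves run together, with nr4a2a and otpb lower and drd1a higher at 4 dpf.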

How the data were processed

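Total RNA from whole larvae was measured on Affymetrix Zebrafish Gene arrays, per the labels. The deposited values were used unchanged and read as log2 expression from their range. Software and normalization: not given in the sources used here. Of 73244 features, 20491 probe sets carried 1 gene symbol, 842 several and 51911 none, and 20013 matched a RefSeq gene table (assembly GRCz12tu). The brightest single-symbol probe set stood for a gene. Features were tested where at least 2 arrays reached the array's 25th percentile. A linear model (lmFit and eBayes of limma 3.58.1, R 4.3.3, two-sided, 6 residual and 3.53 prior degrees of freedom) was fitted to 12 arrays with 6 group means, for 6 injection, 3 age and 2 interaction comparisons, adjusted by Benjamini-Hochberg within each. Precision is limited by 2 arrays a group, and the median standard error of a difference was 0.20. On simulated data for controls between ages (58127 features), the fit recovered 45 of 100 features with a 2-fold change and 93 of 100 with a 4-fold change. Of its 145 calls 7 were false. Far fewer features changed there than the 6578 called in the real comparison, which makes the adjusted p stricter. The recovery may therefore be too low for the real comparison.

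The members and the 12 gene lists were chosen with earlier results of these data known. From each list up to 4 genes with the smallest unadjusted p in any of the 11 comparisons were named, and others are said to have been chosen later. Alternatives varied the normalization, filter, spread estimate, replicate block, probe set and the arrays in the fit. Same-numbered arrays deviated together within an age (correlations 0.18 to 0.33 over 6 pairs of groups) but not in every pair between ages, and the labels give no reason for a pairing. No sequence is printed.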

Additional observations from a re-analysis of the deposited data

How the results depend on the processing

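Of the 15 calls of the 10 genes, the 6 in the mean age comparison held under all 18 alternatives run on it, and no called value changed sign. In controls 3 genes were called, 6 with the stricter filter, 5 with the replicate block, 1 with the groups compared alone and 0 to 5 with 1 array left out. After 5-HT 2 were called, 1 with median-centred arrays or no filter and 0 to 2 with 1 array left out. After reserpine 4 were called, 2 with no filter, 0 with the groups compared alone and 1 to 3 with 1 array left out. The nr4a2b call in controls was lost with median-centred arrays (adjusted p = 0.0591) and with no filter (adjusted p = 0.0518). No alternative called a member in an injection or interaction comparison. Features called for 5-HT against control at 2 dpf numbered 4, and 8 after quantile normalization, 13 median-centred, 19 with the stricter filter, 1 with the replicate block, 0 with that age alone, 274 with the groups compared alone and 0 to 1215 with 1 array left out. With the arrays of 4 dpf alone 32 features were called for 5-HT against control and 23 for 5-HT against reserpine, both 0 otherwise and 0 to 372 and 0 to 421 with 1 array left out. The groups compared alone gave 4104 features for controls between ages (6578 in all arrays, 1457 to 7202 with 1 array left out), 831 for reserpine (4038, 1279 to 3938) and 2270 for the 5-HT interaction (1253, 0 to 2458). Leaving out 1 array gave 1101 to 6672 features for 5-HT between ages, 0 to 97 and 0 to 191 for reserpine against control and 5-HT against reserpine at 2 dpf, and 10182 to 14188 for the mean (14409). The cause of these shifts was not tested. Deviations of same-numbered arrays correlated at 0.18 to 0.33 over the 6 pairs of groups within an age and at -0.07 to 0.22 over the 9 between ages, of which 6 were over 0.1. By this measure the numbers paired arrays within an age, and between ages more weakly and not in every pair of groups. A replicate block within each age, added after seeing the data, called 0 of the 10 genes in the injection and interaction comparisons and 1 feature for 5-HT against control at 2 dpf. Beside the counts above, the planned block over both ages ended the nr4a2a call after reserpine (adjusted p = 0.0502) and added comtb there (adjusted p = 0.0339). With 2 arrays a group, changes of 2-fold were often missed in simulated data where few features changed. A lone array left in a group is assumed to vary like the others.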

Other observations

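Lists of other tissues were read in the mean age comparison, where 37.4% of genes were called. All 13 measured exocrine pancreas genes rose, with a median of 4.69. Of 9 glial genes 2 rose and 3 fell, with a median of 0.05. Of 11 liver genes 2 rose and none fell, and of 17 skeletal muscle genes 2 rose and 2 fell, with medians of 0.05 and 0.06.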
